A study of Drosophila melanogaster with 9 samples.

Results

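The cytosolic ribosomal protein genes of the *Drosophila* embryo were taken as all genes of the count table whose symbol begins with RpL or RpS followed by a digit, or with RpLP, leaving out *RpS5b*. The rule gave 89 of 15228 genes, of which 49 encode large subunit proteins or their relatives, 37 encode small subunit proteins and 3 encode the P proteins of the ribosomal stalk. RNA of whole stage 16 embryos had been sequenced as polyadenylated RNA in *pri* S18.1 mutants, in *ken*1/*Df*(2R)BSC660 mutants, which carry the *ken*1 allele over a deficiency that deletes *ken*, and in control embryos, whose labels give the genotype WT and titles that begin with w. Each genotype had 3 independent samples of 200 embryos, and the mutants had been picked by hand with a GFP balancer, so no tissue was isolated. *pri* encodes short peptides that act in epidermal differentiation and Ken is a transcriptional repressor, and the RNA-seq was made to find the genes that change without either of them.

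The cytosolic ribosome is built of a small subunit, which reads the mRNA, and a large subunit, which forms the peptide bonds, and most of their proteins are present in a single copy in each particle. Ribosomal protein mRNAs are among the most abundant mRNAs of growing cells and are known for being made in proportion to each other. In *Drosophila* the loss of a single copy of many of these genes gives the Minute phenotype of slow development and thin bristles, and a few of the genes are duplicated, often with a copy that is used mainly in the germ line.

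The counts assigned to genes lay between 21048610 and 28859395 per sample (median 23036142). *ken* itself stood at 1197, 1184 and 1338 normalized counts in *ken* mutants, against 6957, 7431 and 6432 in control embryos, which fits the labels. Normalized counts are the counts of a sample divided by its size factor. *pri* sample 1 stood apart, with a sum over 22 midgut genes of 28234 normalized counts against 8760 and 10304 in *pri* samples 2 and 3. The sums were 15426, 10660 and 14678 in control embryos and 14524, 7798 and 11881 in *ken*. Sample 1 was thus the highest and sample 2 the lowest in each genotype, with the widest gap in *pri*. *ken* sample 2 was high in the ribosomal protein genes, with 13.8% of its counts in them. Of marker genes, none of 10 muscle genes was called in either mutant by edgeR or DESeq2 (unadjusted p under 0.05, 1 in *pri* and 0 in *ken*). Of 10 neuron genes, edgeR and DESeq2 each called 1 higher in *pri* and none in *ken* (unadjusted p under 0.05, 2 and 0). The log2 fold changes of the neuron genes in *pri* ran from −0.31 to 0.75. Over all genes, edgeR called 3.68% higher and 3.83% lower in *pri*, and 2.21% and 2.81% in *ken*. Of the 22 midgut genes, edgeR called 2 lower in *pri* and 4 in *ken* and none higher (DESeq2, 1 higher and 3 lower in *pri*, 0 and 4 in *ken*; unadjusted p under 0.05, 9 and 5), while the median log2 fold change of the list was 1.08 in *pri* and 0.20 in *ken*. Those called lower include *LManII* and *LManIII* in both mutants, and the trypsin, Jonah and amylase genes of the list had positive values in *pri*, with the highest count of each in *pri* sample 1. In RNA of whole embryos, fewer cells of a type and less RNA per cell cannot be told apart.

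Ribosomal protein genes took a near constant part of the RNA in all genotypes. They held 13.0, 12.5 and 12.6% of the counts in *pri*, 12.4, 13.8 and 12.7% in *ken*, and 12.2, 13.2 and 12.8% in control embryos. The 3 genotypes overlapped, with *ken* sample 2 at the top and control sample 1 at the bottom. Of the 89 genes, 83 had a mean of at least 1000 normalized counts over the 9 samples. The other 6, *RpL22-like*, *RpL37b*, *RpS10a*, *RpS19b*, *RpS28a* and *RpS28-like*, are the rarely used copies of duplicated genes.

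Levels of different genes were compared per kb of exon. In control embryos the 83 abundant genes had a median of 40630 normalized counts per kb (quartiles 29060 and 50360), and 74 of them lay within 2-fold of that median. Large subunit and stalk genes had a median of 42820 normalized counts per kb (n = 50) and small subunit genes one of 38780 (n = 33). Among the 100 genes of the table with the highest level per kb in control embryos, 74 were ribosomal protein genes. *RpL41*, which encodes the smallest ribosomal protein, led with 121800 normalized counts per kb, followed by *RpL27A* (72680), *RpL14* (68780), *RpL31* (67550) and *RpL23* (66520), all of the large subunit.

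At the low end of the 83 abundant genes were copies and relatives of other members. *RpLP0-like*, whose yeast counterpart is a ribosome assembly factor, had 1298 normalized counts per kb, *RpS15Ab* had 2016 and *RpL24-like*, also an assembly factor by its yeast counterpart, had 4694. *RpS9*, a small subunit protein near the mRNA entry site, had 6600 normalized counts per kb. It shares 512 of its 1018 exon bases with the antisense gene *asRNA:CR45874*, which had at most 3.49 normalized counts in any sample. The part of this overlap in the level of *RpS9* was not tested. The 6 rare genes lay far lower, with *RpS19b* the highest of them at 61.96 normalized counts per kb.

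**Figure D1:**
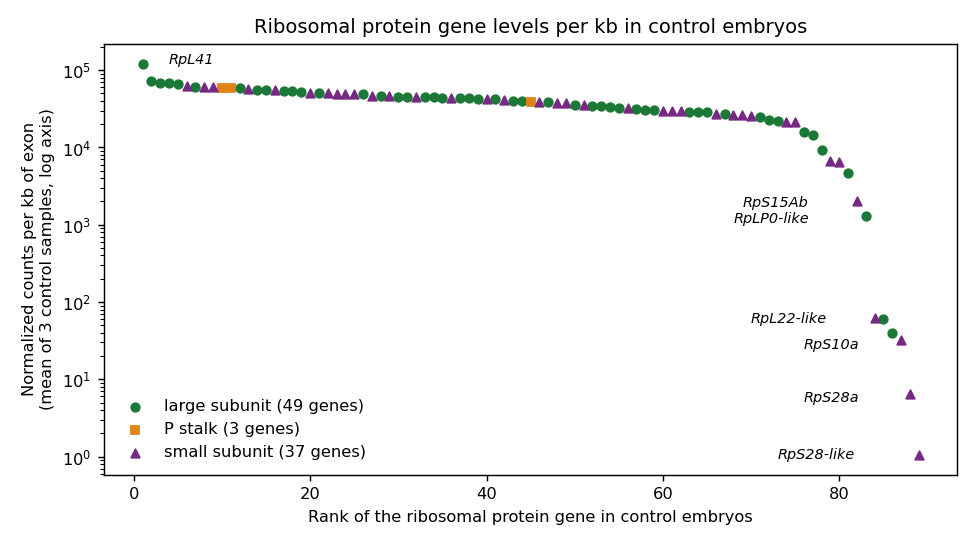
Levels of the 89 ribosomal protein genes in control embryos, as the mean normalized count of the 3 control samples per kb of exon (log axis), ranked from the highest. Green circles are large subunit genes, orange squares the P stalk and purple triangles small subunit genes. The quartiles of the 83 abundant genes are at 29060 and 50360 per kb, and 6 rare copies lie at or below 61.96.

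The mutants were then compared with control embryos gene by gene. Only a paralogue pair passed the test against control embryos in the main fit, both in *pri* mutants: *RpL22-like* was higher and *RpL22* lower. In *pri* mutants, 1 of 89 genes was called higher and 1 lower, against 3.68% and 3.83% of all genes tested (either direction, 7.51%). In *ken* mutants none was called in either direction by edgeR's quasi-likelihood test at an adjusted p under 0.05, against 2.21% higher and 2.81% lower among all genes (either direction, 5.02%). DESeq2 gave the same counts of 1, 1, 0 and 0. Of all 15228 genes it called 872 higher and 837 lower in *pri*, and 551 higher and 688 lower in *ken*. At an unadjusted p under 0.05 in edgeR there were 3 genes in *pri* mutants and 2 in *ken* mutants, where all genes gave 22.1% and 17.7%. Both comparisons share the control samples.

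The intervals bound the size of the differences. The median log2 fold change (log2 FC) of the 89 genes was −0.02 in *pri* mutants and 0.04 in *ken* mutants, where the medians of all genes were 0.02 and 0.01. Among the 83 abundant genes the log2 FCs ran from −0.39 to 0.17 in *pri* mutants and from −0.22 to 0.20 in *ken* mutants. The 95% interval of the log2 FC lay wholly within 0.5 of 0 for 82 of 89 genes in *pri* mutants and for 83 of 89 in *ken* mutants, compared with 5170 and 5551 of the 15228 genes tested. These genes are counted more deeply than most, and their interval bounds lay a median of 0.19 from the estimate, against 0.46 over all genes.

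Groups of 3 samples that do not overlap were also counted. *pri* mutants and control embryos did not overlap in 14 of 89 ribosomal protein genes (4 higher and 10 lower in *pri*), or 15.7%, where all genes gave 31%. *ken* mutants and control embryos did not overlap in 6 (5 higher and 1 lower in *ken*), or 6.74%, where all genes gave 24.9%. The genes that lay lower in *pri* mutants were *RpL4*, *RpL7A*, *RpL22*, *RpL23A*, *RpL41*, *RpLP1*, *RpS3*, *RpS19a*, *RpS28b* and *RpS29*, and those that lay higher were *RpL12*, *RpL22-like*, *RpL37b* and *RpS10a*. In *ken* mutants *RpL24-like*, *RpL26*, *RpL35*, *RpL36* and *RpS28-like* lay higher and *RpL7A* lower. Of these, only *RpL22* and *RpL22-like* passed the test.

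The 89 genes lie on all chromosome arms, with 21 each on 2R and 3R, 18 on 2L, 14 each on 3L and X and 1 on 4. By arm, their median log2 FCs ran from −0.05 (X) to 0.01 (3L and 4) in *pri* mutants. In *ken* mutants they ran from −0.07 (the gene on 4) to 0.05 (2R). *ken* lies on 2R, and the ribosomal protein genes of that arm lie 183 to 19354 kb from it. The extent of the deficiency was not examined, so the median of the arm does not bear on it. Across the 83 abundant genes, exon length and log2 FC had a Spearman correlation of −0.02 in *pri* and −0.35 in *ken* mutants. This is across genes that share libraries, and genes are not independent replicates. The 20 shortest genes had a median log2 FC of 0.06 in *ken* mutants and the 20 longest one of −0.01.

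**Figure D2:**
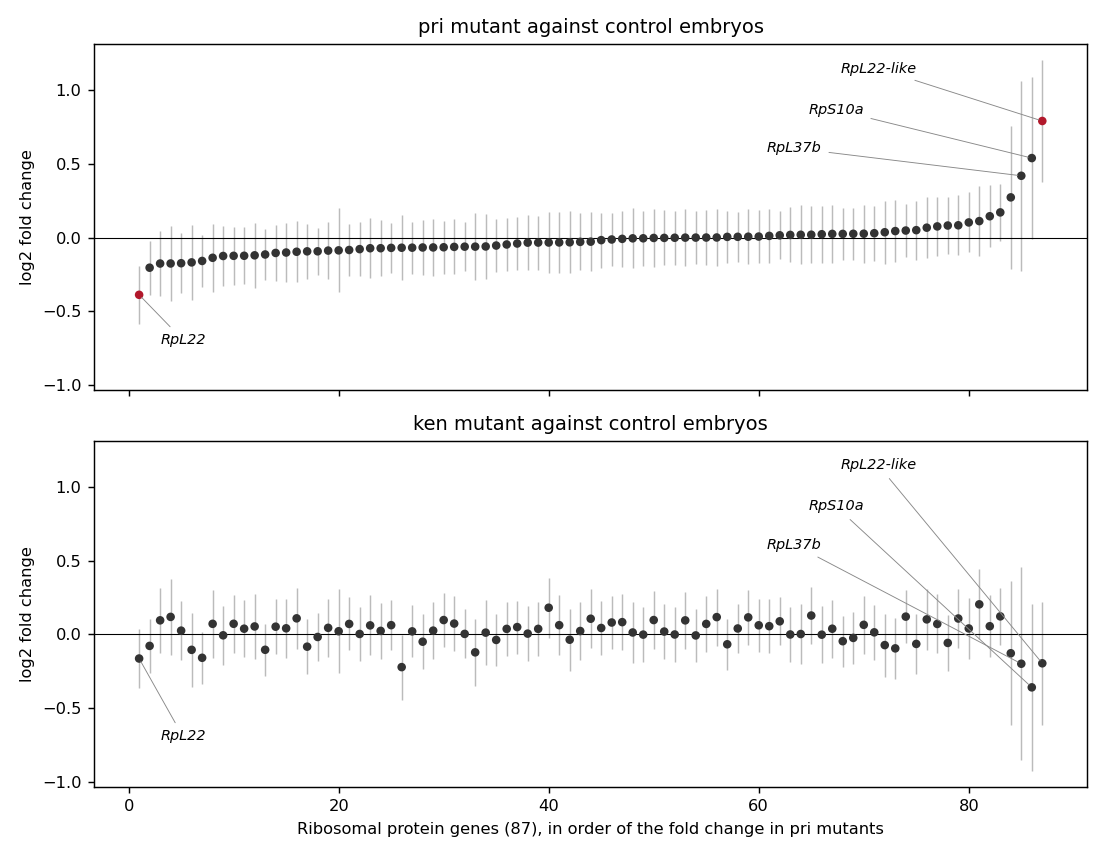
Log2 FCs of 87 ribosomal protein genes in *pri* mutants (top) and *ken* mutants (bottom) against control embryos, with 95% intervals as grey bars and genes in the order of the change in *pri* mutants in both panels. *RpS28a* and *RpS28-like*, with at most 5 counts in a sample, are left out. The red points in the top panel are *RpL22* at −0.39 and *RpL22-like* at 0.79, the only genes past an adjusted p of 0.05.

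*RpL22* (FBgn0015288; X, 762560 to 765130 of dm6) encodes an rRNA-binding protein of the large subunit. It stood at 17780, 19003 and 18804 normalized counts in *pri*, 20324, 22737 and 21890 in *ken*, and 26644, 23567 and 22386 in control embryos. All *pri* samples lay below all samples of the other genotypes, while *ken* and control overlapped. The log2 FC in *pri* mutants was −0.39 (standard error 0.09, 95% interval −0.58 to −0.19, adjusted p = 0.0292 from edgeR). In *ken* mutants it was −0.16 (95% interval −0.36 to 0.03, adjusted p = 0.386), and between *pri* and *ken* mutants −0.22 (adjusted p = 0.171).

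The call of *RpL22* lay close to the threshold. It was kept in 12 of 18 alternative settings, with adjusted p from 0.000645 to 0.099 and log2 FCs from −0.45 to −0.31. It was lost without control sample 1, which was the highest (log2 FC −0.31, adjusted p = 0.099), without control sample 2 (0.0775), without sample 2 or 3 of *pri* (0.0712 and 0.0811), without sample 3 of *ken* (0.0563), and in a fit of *pri* and control alone (0.0502). Of the 2 alternatives added after seeing the data, it was lost with TMM factors from the ribosomal protein genes alone (0.074) and kept without *pri* sample 1 and *ken* sample 2 (0.0365). *RpL22* also shares 377 exon bases with *lncRNA:CR42491* on the same strand, which had 571, 711 and 766 normalized counts in *pri* mutants and 605, 721 and 640 in control embryos (log2 FC 0.06, adjusted p = 0.833).

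*RpL22-like* (FBgn0034837; 2R, 23246610 to 23247893) encodes a diverged copy of RpL22 that is known from the testis. It stood at 140, 113 and 133 normalized counts in *pri*, 56.8, 79.0 and 59.2 in *ken*, and 72.5, 78.2 and 71.9 in control embryos. These values come from 122, 107 and 127 counts in *pri*, 69, 75 and 60 in *ken*, and 83, 87 and 63 in control embryos. Every *pri* sample was above every other sample, and *ken* and control overlapped. The log2 FC in *pri* mutants was 0.79 (standard error 0.18, 95% interval 0.38 to 1.21, adjusted p = 0.0325 from edgeR). In *ken* mutants it was −0.20 (95% interval −0.62 to 0.22, adjusted p = 0.643).

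Compared with each other, *pri* mutants had more *RpL22-like* than *ken* mutants, with a log2 FC of 0.99 (standard error 0.19, 95% interval 0.57 to 1.41, adjusted p = 0.0115 from edgeR). This call was kept in 17 of 18 alternative settings (adjusted p from 0.000165 to 0.0501) and lost without *ken* sample 3. The call of *pri* against control was kept in 12 of 18 (adjusted p from 0.0042 to 0.118). It was lost without control sample 1 (0.112), 2 (0.0849) or 3 (0.118), sample 1 (0.0705) or 3 (0.0956) of *pri*, or sample 3 of *ken* (0.0523), with log2 FCs of 0.73 to 0.88 over all settings.

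The pair as a whole was counted almost only as *RpL22*. *RpL22-like* made up 0.780, 0.593 and 0.702% of the pair's normalized counts in *pri*, 0.279, 0.346 and 0.270% in *ken*, and 0.271, 0.331 and 0.320% in control embryos. In other terms, *RpL22* was counted 127, 168 and 142 times as often as *RpL22-like* in *pri* mutants, 358, 288 and 370 times in *ken* mutants, and 368, 301 and 311 times in control embryos. The *pri* samples did not overlap with those of the other genotypes in either measure. This ratio is within a sample, so it does not depend on the size factors, but it is made of the same values as the tests of each gene. Of 10 genes of epidermis and cuticle secretion, edgeR called *serp* and *verm*, which encode chitin deacetylases, lower in *pri* (log2 FC −0.55 and −0.38) and none in *ken* (DESeq2, 4 and 1 lower; unadjusted p under 0.05, 6 and 1). The list summed to 73295, 76105 and 75816 normalized counts in *pri*, 85612, 89885 and 91743 in *ken*, and 97817, 95734 and 93403 in control embryos, and *serp* and *verm* hold most of these counts. Others had positive values in *pri*, namely *rtv* (0.30), *pio* (0.22), *grh* (0.11) and *pot* (0.01), none of them called. Their part in the result was not tested.

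**Figure D3:**
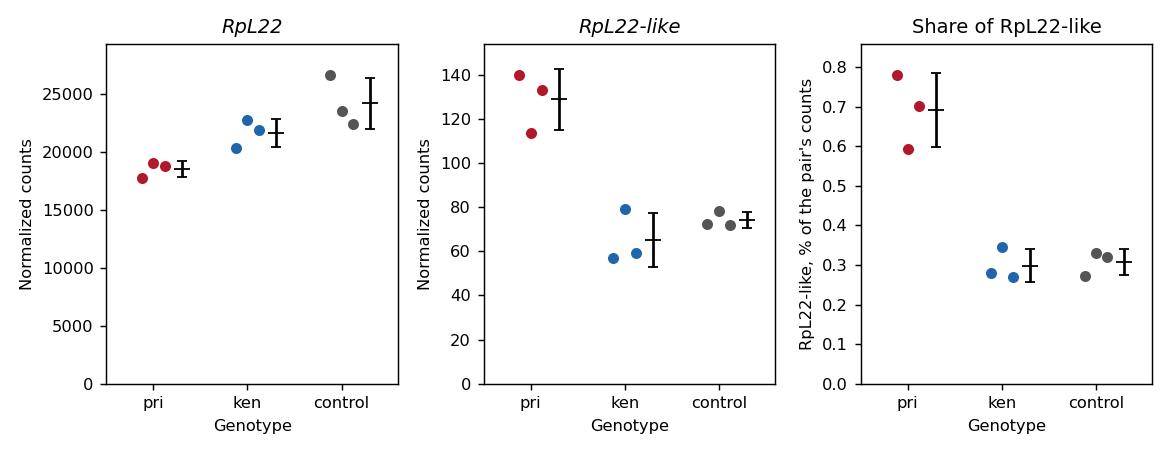
Normalized counts of *RpL22* and *RpL22-like* and the percent of the pair's counts from *RpL22-like*, in *pri*, *ken* and control embryos. Coloured points are samples and black marks the mean with SD (n = 3). *RpL22-like* lies at 113 to 140 in *pri* mutants and at 56.8 to 79.0 in the other genotypes.

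Since *RpL22-like* is used in the germ line, germ line genes were read beside it. Of 12 germ line genes, none was called higher in *pri* mutants by edgeR (DESeq2, 1 higher and 2 lower, and unadjusted p under 0.05 in either direction, 4) and 1, *RpS5b*, was called lower. *ovo* (log2 FC −0.43 in *pri*, adjusted p = 0.0959 from edgeR) is also counted among the 10 genes of epidermis and cuticle secretion, listed there as *svb*, the gene of Shavenbaby. The 2 lists are therefore not separate. *ovo* stood at 2376, 2620 and 2643 normalized counts in control embryos, and the part of these from the germ line was not tested. In *ken* mutants edgeR called none higher and *RpS5b* lower, while DESeq2 called 3 higher and 1 lower (unadjusted p under 0.05 in either direction, 6). *bam*, a gene of germ cell differentiation, stood at 20.6, 15.9 and 13.6 normalized counts in *pri*, 192, 48.4 and 46.4 in *ken*, and 21.8, 23.4 and 12.5 in control embryos. It was high in *ken*, most of all in sample 1, with a log2 FC of 2.30 against control (adjusted p = 0.0515), and was called lower in *pri* than in *ken* (log2 FC −2.52, adjusted p = 0.0287). The part of germ line genes in the values of *RpL22-like* was not tested. *vas*, a helicase of the germ line, stood at 220, 218 and 224 in *pri*, 234, 225 and 225 in *ken*, and 155, 150 and 183 in control embryos, with log2 FCs of 0.44 (adjusted p = 0.0649) and 0.49 (adjusted p = 0.0583). Between *pri* and *ken* mutants the log2 FC of *vas* was −0.05 (adjusted p = 0.867). The median log2 FC of the 12 genes was −0.23 in *pri* and 0.38 in *ken* mutants. Besides *vas*, only *nos* (0.34), *tud* (0.21) and *aub* (0.19) had positive values in *pri*. The others were negative, among them *pgc* (−0.90) and *AGO3* (−0.84), which were not called. *RpS5b*, the germ line copy that the rule leaves out, had log2 FCs of −1.25 and −1.50, and its partner *RpS5a* had 0.03 and 0.04.

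The other rare copies had too few counts for a close comparison. *RpS10a*, a germ line copy of the small subunit gene *RpS10b*, stood at 30.9, 30.7 and 25.1 normalized counts in *pri*, 14.8, 15.8 and 15.8 in *ken*, and 22.7, 21.6 and 14.8 in control embryos. The *pri* samples were above the rest, with a log2 FC of 0.54 against control (adjusted p = 0.235) and 0.90 against *ken* (95% interval 0.34 to 1.46, adjusted p = 0.0596). The second passed in both settings that leave out genes of low counts (adjusted p = 0.0376 and 0.0373).

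*RpL37b*, the rare copy of *RpL37a*, stood at 25.2, 21.2 and 20.9 in *pri*, 12.3, 13.7 and 17.8 in *ken*, and 19.2, 11.7 and 19.4 in control embryos. *RpS19b*, a germ line copy of *RpS19a*, stood at 57.3, 43.5 and 49.2 in *pri*, 38.7, 44.2 and 30.6 in *ken*, and 37.5, 44.0 and 42.2 in control embryos. Neither was called, with adjusted p of 0.428 and 0.499 in *pri* and 0.793 and 0.829 in *ken* mutants. *RpS28a* had 0 to 3 counts and *RpS28-like* 0 to 5 counts per sample, which allows no comparison.

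Of the abundant duplicated genes, none but *RpL22* was called in any comparison by edgeR or DESeq2. Over all genes, edgeR called 7.51% in *pri* against control, 5.02% in *ken* against control and 8.12% in *pri* against *ken*. *RpL24-like* made up 11.3, 9.45 and 9.61% of the counts of its pair with *RpL24* in *pri*, 11.1, 10.6 and 10.3% in *ken*, and 9.75, 8.55 and 9.20% in control embryos. Its *ken* samples, at 4134, 4343 and 4084 normalized counts, lay above the control samples at 3702, 3530 and 3653, a log2 FC of 0.20 (adjusted p = 0.372, not passed). *RpL34b*, the more counted copy of the *RpL34* pair, held 85.6, 85.3 and 85.5% in *pri*, 87.3, 85.7 and 87.4% in *ken*, and 85.1, 84.5 and 85.5% in control embryos.

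*RpS14a* and *RpS14b* are near-identical copies that lie beside each other on X, and reads that match both cannot be assigned with certainty. *RpS14b* held 14.2 to 14.7% of the pair's counts in *pri*, 14.8 to 15.6% in *ken* and 14.6 to 15.7% in control embryos. *RpS15Ab* held 4.47, 5.25 and 4.96% of its pair with *RpS15Aa* in *pri*, 3.75, 4.14 and 3.97% in *ken*, and 4.81, 5.06 and 4.81% in control embryos. The *ken* samples were the lowest in this share, and the log2 FC of *RpS15Ab* in *ken* mutants was −0.22 (95% interval −0.44 to −0.002, adjusted p = 0.278). *RpLP0-like* stood at 2.15 to 2.55% of its pair with *RpLP0* in *pri*, 2.25 to 2.76% in *ken* and 2.19 to 2.57% in control embryos.

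**Figure D4:**
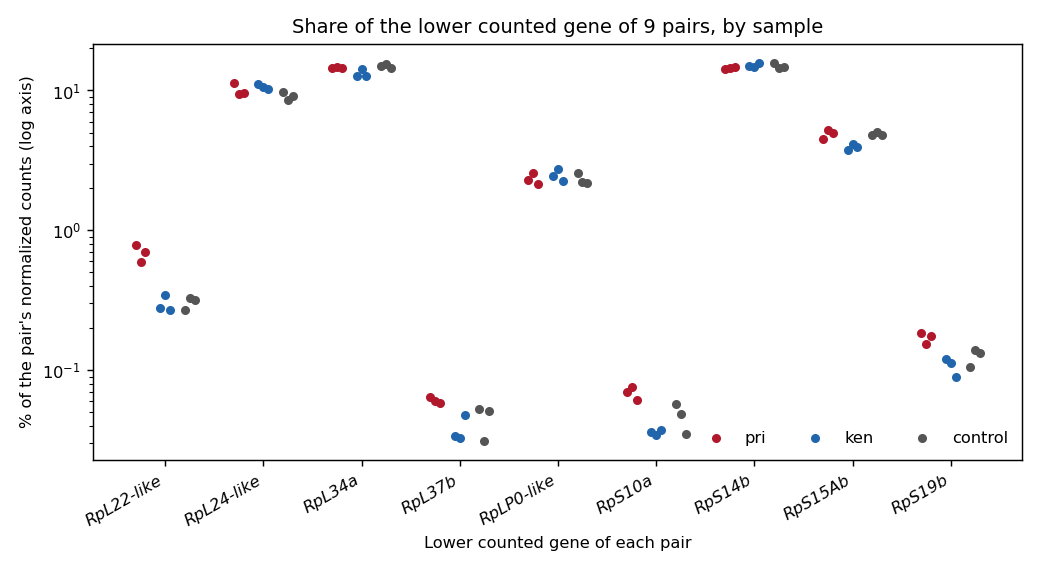
Percent of a pair's normalized counts from its lower counted gene (log axis), for 9 pairs of ribosomal protein genes in *pri* (red), *ken* (blue) and control (grey) samples, 3 points each. *RpL22-like* lies at 0.593 to 0.780% in *pri* mutants, above the 0.270 to 0.346% of the other genotypes, while *RpS14b* lies at 14.2 to 15.7% in all.

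In the large subunit, none of the genes other than the *RpL22* pair was called in either mutant by edgeR or DESeq2, and at an unadjusted p under 0.05 there were 2 genes in *pri* mutants (the pair itself) and none in *ken* mutants. The 49 genes had median log2 FCs of −0.03 in *pri* and 0.02 in *ken* mutants. *RpL5* and *RpL11*, which enter the ribosome together with the 5S rRNA, had log2 FCs of −0.03 and −0.03 in *pri* and −0.04 and 0.11 in *ken* mutants. *RpL32*, often used as a reference gene in quantitative PCR, stood at 38748, 35217 and 34858 normalized counts in *pri*, 36090, 42104 and 38432 in *ken*, and 34659, 38118 and 36040 in control embryos. The log2 FC of *RpL32* was −0.001 in *pri* mutants (95% interval −0.20 to 0.20) and 0.10 in *ken* mutants (95% interval −0.10 to 0.29). *RpL40*, made as a fusion with ubiquitin, had log2 FCs of 0.02 in *pri* and 0.13 in *ken* mutants. *RpL41* had −0.14 in *pri* and 0.07 in *ken* mutants.

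*RpL7A*, a large subunit protein that binds rRNA, was low in both mutants without passing the test. It stood at 74856, 70207 and 71037 normalized counts in *pri*, 70243, 75074 and 70770 in *ken*, and 76005, 84124 and 80641 in control embryos. Neither mutant overlapped with control embryos, and the log2 FC was −0.16 in each (adjusted p = 0.283 in *pri* and 0.344 in *ken*). *RpL12* and *RpL39*, the ribosomal protein genes nearest to *ken* (183 and 184 kb away on 2R), had log2 FCs of 0.12 and −0.11 in *ken* mutants (adjusted p = 0.523 and 0.688).

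In the small subunit, none of 37 genes was called in either mutant by edgeR or DESeq2, with 1 gene in *pri* and 2 in *ken* mutants at an unadjusted p under 0.05. Their median log2 FC was 0.00 in *pri* and 0.04 in *ken* mutants. *RpS3*, at the mRNA entry site, stood at 36682, 34278 and 33599 normalized counts in *pri*, 35475, 41222 and 37433 in *ken*, and 40863, 39740 and 39629 in control embryos. All *pri* samples lay below all control samples, with a log2 FC of −0.20 (95% interval −0.39 to −0.02, adjusted p = 0.18). Without *pri* sample 1 and *ken* sample 2, an alternative added after seeing the data, it was −0.24 and passed (adjusted p = 0.0409). *RpS6*, the substrate of S6 kinase, had log2 FCs of −0.10 in *pri* and 0.05 in *ken* mutants. *RpS27A*, the small subunit's ubiquitin fusion, had −0.004 and 0.01, and *RpS12*, which in the fly takes part in the competition between cells with different ribosomal protein gene doses, had 0.02 and −0.001.

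None of the 3 stalk genes was called, where edgeR called 7.51% of all genes in *pri* and 5.02% in *ken* mutants. *RpLP0*, the base of the stalk that recruits translation factors, stood at 52392, 47323 and 46161 normalized counts in *pri*, 46493, 52027 and 48382 in *ken*, and 50519, 52364 and 52459 in control embryos. The log2 FCs of *RpLP0*, *RpLP1* and *RpLP2* were −0.09, −0.08 and −0.09 in *pri* and −0.08, 0.07 and 0.11 in *ken* mutants. None of these had an unadjusted p under 0.05 (all genes, 22.1% in *pri* and 17.7% in *ken*) or passed by DESeq2.

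Between *pri* and *ken* mutants, *RpL22-like* was the only ribosomal protein gene called (1 higher and 0 lower in *pri* by edgeR and by DESeq2). Over all genes, edgeR called 4.03% higher and 4.09% lower (either direction, 8.12%), and DESeq2 called 936 higher and 862 lower of 15228. At an unadjusted p under 0.05 there were 6, where all genes gave 22.4%. The median log2 FC of the 89 genes was −0.06, where that of all genes was 0.01. The groups did not overlap in 13 genes (4 higher and 9 lower in *pri*), or 14.6%, where all genes gave 26.5%.

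Ribosomal protein genes of a sample moved together. In *ken* sample 2, all 83 abundant genes lay above their own mean over the 9 samples, with a median log2 difference of 0.14. In the other samples the median was 0.05, −0.07 and −0.07 in the *pri* samples 1 to 3, −0.05 and 0.00 in the *ken* samples 1 and 3, and −0.05, 0.04 and 0.00 in the control samples. *pri* samples 2 and 3 and *ken* sample 1 had 10, 11 and 9 of 83 genes above their mean, and *pri* sample 1 had 70. The other 4362 genes with a mean of at least 1000 had medians from −0.05 to 0.02 in the same samples. In *ken* sample 2 their quartiles were −0.11 and 0.13. How many of them lay above their own mean was not counted.

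Within a genotype, the abundant ribosomal protein genes had a median SD of 0.09 on the log2 scale, against 0.13 for the other 4362 genes with a mean of at least 1000, which were not matched to them in abundance. Once the median of the ribosomal protein genes of each sample was subtracted, their SD fell to 0.03. No like subtraction was made for the other genes. Over all 9 samples the highest value of an abundant ribosomal protein gene was 1.11 to 1.52 times its lowest (median 1.21). *RpS30*, a fusion with a ubiquitin-like protein, was at the top. *RpS30* stood at 23274, 20029 and 20574 normalized counts in *pri*, 23635, 30406 and 24312 in *ken*, and 25839, 22803 and 23367 in control embryos. Its highest value came from *ken* sample 2, and its log2 FCs were −0.17 in *pri* and 0.12 in *ken* mutants.

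**Figure D5:**
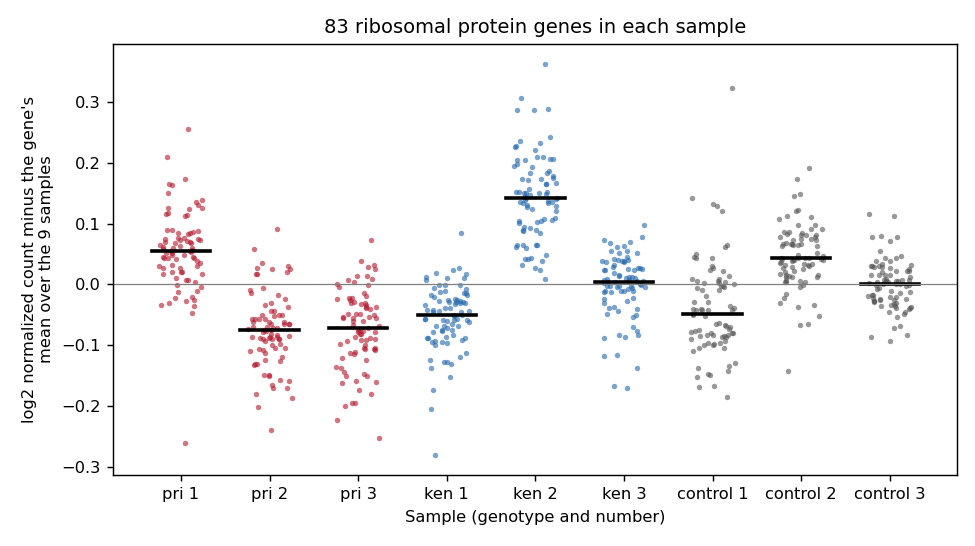
Log2 normalized counts of the 83 abundant ribosomal protein genes in each sample, minus each gene's mean over the 9 samples, for *pri* (red), *ken* (blue) and control (grey) embryos. Points are genes and black lines the median of a sample. The genes of a sample shift together, with a median of 0.14 in *ken* sample 2 and of −0.07 in *pri* samples 2 and 3.

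*RpL22* was set against this common shift. Relative to the median of the abundant ribosomal protein genes in its sample, and centred over the 9 samples, *RpL22* was at −0.30, −0.07 and −0.09 in *pri*, −0.03, −0.08 and 0.01 in *ken*, and 0.37, 0.10 and 0.08 in control embryos. On this scale *pri* sample 1 was the lowest and control sample 1 the highest, and *pri* samples 2 and 3 overlapped with the *ken* samples, while *pri* and control did not overlap. *RpL22-like* was at 0.67, 0.51 and 0.73 in *pri*, −0.53, −0.28 and −0.54 in *ken*, and −0.17, −0.16 and −0.22 in control embryos.

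Genes that work beside the ribosomal proteins were read from lists. Against control, edgeR called 3.68% of all genes tested higher and 3.83% lower in *pri* mutants. In *ken* mutants the shares were 2.21% and 2.81%. The counts called in these short lists stand beside those shares. *sta* and *Rack1*, a pair of ribosome components whose names fall outside the rule, were not called, with log2 FCs of 0.07 and −0.01 in *pri* and −0.03 and −0.03 in *ken* mutants. Of 7 elongation factor genes, none was called in *pri* mutants by edgeR (DESeq2, 1 lower; unadjusted p under 0.05 in edgeR, 0) and 1 was lower in *ken* mutants. That gene, *eEF1delta*, a nucleotide exchange factor subunit, stood at 3857, 4260 and 4229 normalized counts in *pri*, 2989, 3324 and 2821 in *ken*, and 4383, 5100 and 4485 in control embryos (log2 FC −0.62 in *ken*, adjusted p = 0.00492).

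Of 27 initiation factor genes, 1 was called lower in each mutant by edgeR (DESeq2, 1 in *pri* and 3 in *ken*), and neither tool called any higher (unadjusted p under 0.05 in either direction, 4 in *pri* and 5 in *ken*). In *pri* mutants it was *eIF3i*, a subunit of the initiation factor that binds the small subunit, with a log2 FC of −0.31 (adjusted p = 0.0213). In *ken* mutants it was *eIF6*, which keeps free large subunits from joining, at 794, 620 and 609 normalized counts, against 978, 1041 and 1043 in control embryos (log2 FC −0.60, adjusted p = 0.0159). *eIF6* lies 20 kb from *ken* on 2R, and whether the deficiency includes it was not tested.

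Of 31 genes for rRNA processing and ribosome assembly, 1 was higher in *pri* mutants and edgeR and DESeq2 called none in *ken* (unadjusted p under 0.05, 5). It was *pit*, a nucleolar helicase, at 2954, 3354 and 3207 normalized counts in *pri*, 2337, 2317 and 2305 in *ken*, and 2378, 2374 and 2407 in control embryos (log2 FC 0.41, adjusted p = 0.00774). The median log2 FC of the list was −0.11 in *pri* and −0.09 in *ken* mutants. None of 8 RNA polymerase I genes and none of 13 growth regulators, which include *Myc* and *Tor*, was called against control by edgeR. At an unadjusted p under 0.05 there were 0 and 1 of the polymerase genes and 4 and 2 of the regulators in *pri* and *ken*, and DESeq2 called 1 polymerase gene lower in *ken* and 3 regulators higher in *pri*. Between the mutants, edgeR called *S6k* higher in *pri* than in *ken* (log2 FC 0.40, adjusted p = 0.0146). Of the translation factor and assembly lists, it also called *pit* (0.45, 0.00388), *eIF6* (0.56, 0.0148), *eEF1delta* (0.44, 0.0181) and *Rrp4* (0.36, 0.0431) higher. Over all genes, 4.03% were called higher and 4.09% lower.

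Of 10 genes known to respond to a shortage of ribosomal proteins, 1 was higher in *pri* and 2 in *ken* mutants, and none was lower by edgeR (DESeq2, 1 lower in *ken*; unadjusted p under 0.05 in either direction, 2 in *pri* and 4 in *ken*). *Xrp1*, a transcription factor that is induced in Minute cells, stood at 16730, 12681 and 13313 normalized counts in *pri*, 31959, 20880 and 24417 in *ken*, and 13619, 10950 and 9709 in control embryos. All *ken* samples were above all others, with a log2 FC of 1.17 (standard error 0.19, adjusted p = 0.00738 from edgeR), which was kept in all 18 alternative settings. In *pri* mutants it was 0.32 (adjusted p = 0.356), and the difference between *pri* and *ken* was −0.85 (adjusted p = 0.0221). *GstE6*, a glutathione transferase gene of the same list, was higher in both mutants, with log2 FCs of 0.39 in *pri* (adjusted p = 0.047) and 0.98 in *ken* (adjusted p = 0.000755). *Irbp18*, the partner of Xrp1, had 0.17 and 0.45 (adjusted p = 0.437 and 0.064). Other genes of the list went the other way in *ken*, namely *rpr* (−0.56), *Ilp8* (−0.45), *hid* (−0.24) and *p53* (−0.01). The rest were *GstD1* (0.46), *Rpn9* (0.16) and *puc* (0.05), and edgeR called none of these. The median log2 FC of the list was 0.15 in *pri* and 0.10 in *ken* mutants. In the same *ken* samples the 89 ribosomal protein genes had a median log2 FC of 0.04. A median over 89 genes does not show a change of a single gene. The cause of the higher *Xrp1* was not tested.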

How the data were processed

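RNA was measured in 9 samples of whole embryos, 3 of each genotype. Reads had been mapped by the authors to dm6 with STAR 2.6.1d and assigned to FlyBase genes, and genes counted once at most over all samples had been dropped. The deposited table holds whole counts and normalized counts, a signal that the authors made by dividing counts by DESeq2 1.32.0 size factors (largest relative difference 4.99e-10). The submitters' notes name mouse builds, but the genes are those of the fly. The library kit was strand specific. Whether counting used strand, and how reads matching several copies were treated, is not given in the sources used here, so genes that overlap or have near-identical copies are uncertain (31 of the 89 share exon bases with another gene).

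The test was run in R 4.3.3 with edgeR 4.0.16 (on limma 3.58.1): a quasi-likelihood fit of all 9 samples, TMM factors, no filter, Benjamini-Hochberg over 15228 genes, called at an adjusted p under 0.05. Standard errors are the log2 fold change over the root of F. All 89 genes were tested, and filterByExpr and a minimum of 10 counts in 3 samples each keep 87. The script was tested on simulated data. Alternatives were DESeq2 1.42.0, RLE factors, library totals, TMM factors without the members, 2 filters, a robust fit, a fit of the compared genotypes only, the sample number as a block, a log2 fold threshold of 1 and leaving out each sample. TMM factors from the members alone, and leaving out *pri* sample 1 with *ken* sample 2, were added after seeing the data. Alternative settings counted for a gene are the 18 planned ones without a fold threshold, and leave out the 2 added ones.

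Positions and exon lengths come from the Ensembl annotation of dm6 (15159 genes of the table and all 89 members matched). The members and gene lists were chosen with earlier results of these data known. Genes were named by a rule: called members, the 5 highest and 5 lowest per kb, both genes of duplicated pairs, 11 members of known roles and the 5 least even within a genotype. Up to 2 called genes per list were added for each comparison and direction. Not all of these are described above. *RpS3*, *RpL7A*, *RpS9*, *RpL12*, *RpL39*, *RpS5a*, *vas*, *Irbp18*, *sta*, *Rack1*, *rtv*, *pio*, *grh* and *pot* were named after their values were seen. So were *nos*, *tud*, *aub*, *pgc*, *AGO3*, *ovo*, *rpr*, *Ilp8*, *hid*, *p53*, *GstD1*, *Rpn9* and *puc*. Counts of *pri* itself were not analysed here. No sequences were printed.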

Additional observations from a re-analysis of the deposited data

Results flagged for a closer look

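The log2 fold change of *RpL22-like* between *pri* and *ken* mutants was 0.99 by a direct edgeR test of the 2 mutants (adjusted p = 0.0115). Against control embryos it was 0.79 in *pri* and −0.20 in *ken* mutants.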

How the results depend on the processing

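The number of ribosomal protein genes called rests on *RpL22*, *RpL22-like* and *RpS10a*, and on *RpS3* in a setting added after seeing the data. In *pri* against *ken*, 2 genes were called higher (*RpL22-like* and *RpS10a*) with filterByExpr, with at least 10 counts in 3 samples, and with TMM factors from the members alone. In *pri* against control, 0 were called lower in a fit of these genotypes only and with TMM factors from the members alone, and 2 (*RpL22* and *RpS3*) without *pri* sample 1 and *ken* sample 2. With a log2 fold threshold of 1, 0 were called higher and 0 lower in *pri* against control, and 0 higher in *pri* against *ken*. Leaving out each sample in turn gave 0 to 1 higher and 0 to 1 lower in *pri* against control, 0 and 0 in *ken* against control, and 0 to 1 higher and 0 lower in *pri* against *ken*. The median log2 fold change of the members then ran from −0.06 to 0.01, from −0.02 to 0.08 and from −0.10 to −0.03 in the same order. Of 2148 values of named members under an alternative, 2009 kept their direction and side of the threshold, 122 of uncalled genes changed sign, 3 passed and 14 no longer passed. No called value changed sign. Without the 100 most counted other genes, the members held a mean of 15.3% of the counts in *pri*, 15.7% in *ken* and 15.4% in control embryos.

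Samples with the number 1 or 2 deviated together across genotypes, and those with the number 3 did so little or not at all. Correlations over 11295 genes were 0.43, 0.55 and −0.11 for *pri* with control, 0.35, 0.47 and 0.18 for *ken* with control, and 0.55, 0.53 and 0.12 for *pri* with *ken*. Only *pri* sample 3 correlated best with another number, which was sample 2 of control and of *ken*. The main fit has no term for this number. With the number as a block, 1 member was higher and 1 lower in *pri* against control, 0 and 0 in *ken* against control, and 1 and 0 in *pri* against *ken*. Counts of 60 to 127 per sample limit what can be said of *RpL22-like*, and the other rare copies had fewer.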
